A study of Mus musculus with 7 samples.

Results

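The 10 genes described here, Comp, Scx, Sox9, Chad, Cytl1, Tnmd, Mkx, Prg4, Kera and Hapln1, were taken by name from a table of 54735 gene symbols. They are known as genes of heart valves, tendon, ligament and cartilage, and they were followed in fibroblasts sorted from mouse hearts. All 10 passed the filter on low counts, as did 17636 genes in all. The labels do not say whether valves were kept in the dissected hearts.

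RNA was sequenced from 7 libraries of GFP-positive cells isolated by fluorescence-activated sorting. Every animal carried R26eGFP, a reporter at the Rosa26 locus, together with a tamoxifen-dependent MerCreMer recombinase. The Postn P7 group (n = 2) was PostnMCM;R26eGFP at 7 days of age, the Tcf21 P30 group (n = 3) was Tcf21MCM;R26eGFP at 30 days, and the Tcf21 P7 group (n = 2) was Tcf21MCM;R26eGFP at 7 days. Periostin, whose gene gives the first line its name, is a secreted matrix protein, and Tcf21 is a transcription factor of resident cardiac fibroblasts, so the sorted cells are those in which that driver had been active when tamoxifen was present. The time of tamoxifen treatment is not given in the sources used here. Each library pooled males and females. No label says whether libraries of a group came from separate animals, so a p-value here reflects differences among the libraries at hand, which may be technical.

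Tendons and valve leaflets are built in a similar way. Fibroblast-like cells lay down aligned collagen and fill the space between with proteoglycans and hyaluronan, and the transcription factors Scx, Sox9 and Mkx act in their precursors. In heart valves of the mouse, Sox9 is needed for growth of the endocardial cushions, and link protein, the product of Hapln1, holds hyaluronan and its proteoglycans together in the cushion matrix. Comp, Chad, Prg4 and Kera encode matrix proteins of cartilage, tendon, joint surfaces and cornea, Tnmd encodes a membrane protein of tendon cells and Cytl1 a small secreted protein known from cartilage.

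The promoters of 3 members are shown because Chad and Cytl1 were higher at P30 than in either P7 group, whereas Tnmd had its lowest values there. RefSeq (GRCm38.p6) gave windows for 5 of the 10 genes, namely Chad, Cytl1, Hapln1, Kera and Tnmd, and those of Hapln1 and Kera lay within annotated exons and are not printed. The sequences run 5′ to 3′ on the plus strand from base -250 relative to the RefSeq start, up to the start or to the first annotated exon. Chad is chr11:94564797-94565046, Cytl1 is chr5:37735269-37735518 and Tnmd is chrX:133850758-133850979. Capitals mark 3 motifs searched on both strands, the E-box CANNTG bound by basic helix-loop-helix factors such as Scx and Tcf21, the core ACAAT bound by SOX factors, and the TATA box TATAAA.
Chad: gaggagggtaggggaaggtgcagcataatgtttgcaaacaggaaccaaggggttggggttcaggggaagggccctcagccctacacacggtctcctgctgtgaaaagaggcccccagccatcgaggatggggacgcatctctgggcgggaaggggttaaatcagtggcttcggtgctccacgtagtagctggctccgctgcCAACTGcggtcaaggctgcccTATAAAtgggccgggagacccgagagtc
Cytl1: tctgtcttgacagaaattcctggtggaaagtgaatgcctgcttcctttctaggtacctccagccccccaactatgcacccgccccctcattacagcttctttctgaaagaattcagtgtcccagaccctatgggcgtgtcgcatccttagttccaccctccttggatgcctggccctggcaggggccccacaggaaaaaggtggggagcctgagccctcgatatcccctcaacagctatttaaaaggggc
Tnmd: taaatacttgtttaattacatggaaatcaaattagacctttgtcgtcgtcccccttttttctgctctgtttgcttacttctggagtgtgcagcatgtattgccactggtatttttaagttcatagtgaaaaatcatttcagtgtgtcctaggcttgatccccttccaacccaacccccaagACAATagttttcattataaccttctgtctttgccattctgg
The Chad window held 1 E-box (CAACTG, positions -49 to -44) and 1 TATA box (positions -28 to -23). The Tnmd window held 1 SOX core (positions -69 to -65), and the Cytl1 window held none of these letters. Of 32851 RefSeq promoters, 66.2% held an E-box within 250 bases, 27.7% a SOX core and 12.4% a TATA box. In windows of 222 bases, the length printed for Tnmd, the shares were 62.4%, 25.7% and 10.1%. The matches do not overlap each other, and a match of letters is a description, not a bound site.

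Fibroblast transcripts were abundant in every library. The 10 fibroblast markers, among them Col1a1 and Dcn, summed to 38566 to 53482 normalised CPM, that is, counts divided by the scaled library total and multiplied by a fixed number. Of the 10, 2 were called higher and 4 lower in Tcf21 P30 than in Tcf21 P7. In Postn P7 against Tcf21 P30, 4 were higher and 3 lower, and none was called between the P7 groups. Transcripts of other cells were present and varied. The 12 endothelial markers summed to 1946 and 1269 CPM in the Postn P7 group, 4319, 1335 and 1541 CPM in the Tcf21 P30 group and 1524 and 1345 CPM in the Tcf21 P7 group, so that Tcf21 P30 replicate 1 and Postn P7 replicate 1 were the libraries richest in them. The 10 macrophage markers summed to 330.1 and 467 CPM in the Postn P7 group, 607, 409 and 425 CPM in the Tcf21 P30 group and 1142 and 1151 CPM in the Tcf21 P7 group, and 8 of the 10 were called lower in each of the other groups than in Tcf21 P7. For Postn P7 this fell to 3 without Tcf21 P7 replicate 1 and to 3 without Tcf21 P7 replicate 2. The 8 Schwann cell markers summed to 28.6 and 43.3 CPM, 57.2, 50.9 and 53.7 CPM and 21.0 and 17.2 CPM in the same order of groups, with Foxd3 at 0 in all 7 libraries. The part of these cells in the results below was not tested. Libraries held 15207835 to 18519528 counts, and replicates differed by more than sampling noise, with a chi-squared per degree of freedom of 19.6 between the Postn P7 libraries, 10.3 to 40.0 between those of Tcf21 P30 and 3.50 between those of Tcf21 P7.

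Most of these genes were called between the ages and 1 between the lines at P7. A gene is called higher or lower where the p-value of edgeR's quasi-likelihood test, adjusted over all genes tested, was under 0.05. Leaving out 1 library also changed the number of all genes called, as given in the section on processing below. Between Tcf21 P30 and Tcf21 P7, 7 of the 10 genes were called, 5 higher and 2 lower, where 31.8% of all genes were called (16.7% higher and 15.0% lower). In Postn P7 against Tcf21 P30, 8 were called, 3 higher and 5 lower in Postn P7, beside 24.2% of all genes (11.7% higher and 12.5% lower). For Postn P7 set against Tcf21 P7, 2 had an unadjusted p under 0.05, as did 5362 of all 17636 genes. In that comparison 1 was called, lower in Postn P7, beside 12.0% of all genes (6.52% higher and 5.49% lower). The number called was 2 without Postn P7 replicate 1, 0 without Postn P7 replicate 2, 0 without Tcf21 P30 replicate 3, 0 without Tcf21 P7 replicate 1 and 0 without Tcf21 P7 replicate 2. Postn P7 and Tcf21 P30 differ in both line and age, which cannot be told apart in that comparison here or below. Any pair of these comparisons has a group in common, so they are not separate evidence. The 10 genes were chosen with earlier results of these data known, so a number called above the share of all genes is not independent evidence. In bulk RNA, fewer cells that express a gene and less RNA per cell cannot be told apart.

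The median log2 fold change of the 10 genes was 0.72 for Tcf21 P30 over Tcf21 P7, -0.92 for Postn P7 over Tcf21 P30 and 0.016 for Postn P7 over Tcf21 P7, beside 0.033, -0.011 and 0.0021 over all genes. The libraries of Tcf21 P30 and Tcf21 P7 did not overlap for 8 of the 10 genes, 5 higher and 3 lower, beside 61.8% of all genes (31.8% and 29.9%). For Postn P7 and Tcf21 P30 the number was 8, 3 higher and 5 lower, beside 50.6% (24.7% and 25.9%). For Postn P7 and Tcf21 P7 it was 5, 3 higher and 2 lower, beside 64.0% (31.4% and 32.5%), so non-overlap is common among all genes in groups of this size.

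**Figure D1:**
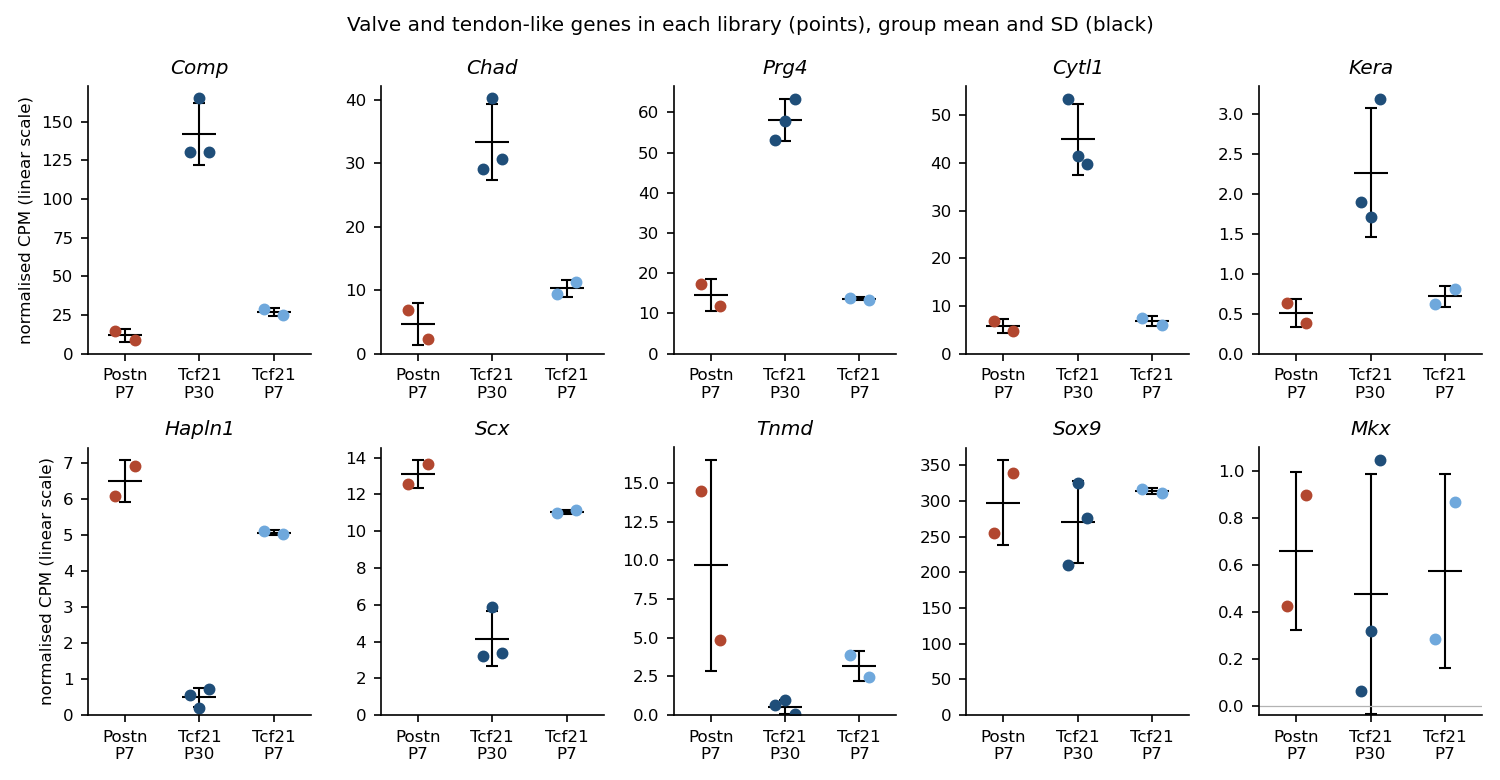
Normalised CPM (linear scale) of each of the 10 genes, 1 point per library, in Postn P7 (n = 2), Tcf21 P30 (n = 3) and Tcf21 P7 (n = 2), with the group mean and SD in black. Comp, Chad, Prg4, Cytl1 and Kera are higher in all 3 Tcf21 P30 libraries than in any P7 library, and Hapln1, Scx and Tnmd are lower.

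Comp, which encodes a collagen-binding protein of the thrombospondin family found in cartilage and tendon (chromosome 8, 70373558 to 70382066, GRCm38), differed between all 3 groups. It was measured at 14.9 and 8.65 CPM in the Postn P7 group, 130.4, 165 and 131 CPM in the Tcf21 P30 group, and 28.6 and 24.8 CPM in the Tcf21 P7 group. No library of 1 group reached into the range of another, and Postn P7 was lowest. Comp was higher in Tcf21 P30 than in Tcf21 P7, by 2.41 ± 0.24 on the log2 scale (SE; adjusted p = 0.000447, edgeR). Against Tcf21 P30, Comp in Postn P7 was lower, with a log2 fold change of -3.59 ± 0.25 (adjusted p = 0.000106), number 85 from the lowest of 17636 genes. Comp was also lower in Postn P7 than in Tcf21 P7 (-1.18 ± 0.25, adjusted p = 0.0290), the single call between the lines at P7. It was called under 11 of 17 alternatives, and not with a block for replicate number (-1.19, adjusted p = 0.0667) or with the Tcf21 P7 libraries summed (-1.17). That call was lost without Postn P7 replicate 2 (-0.86, adjusted p = 0.0687), without Tcf21 P30 replicate 3 (-1.15, adjusted p = 0.0661), without Tcf21 P7 replicate 1 (-1.06, adjusted p = 0.191) and without Tcf21 P7 replicate 2 (-1.26, adjusted p = 0.147), and its adjusted p over all alternatives ranged from 1.6e-10 to 0.191.

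Chad encodes chondroadherin, a leucine-rich repeat protein of cartilage (chromosome 11, 94565047 to 94569127). Its levels were 6.93 and 2.24 CPM in the Postn P7 group, 29.0, 40.2 and 30.7 CPM in the Tcf21 P30 group, and 9.32 and 11.2 CPM in the Tcf21 P7 group. The groups lay in the same order as for Comp and did not overlap, and the Postn P7 libraries stood far apart. Chad was higher in Tcf21 P30 than in Tcf21 P7, by 1.70 ± 0.42 on the log2 scale (adjusted p = 0.0249, edgeR). This call was lost without Tcf21 P30 replicate 2 (1.53, adjusted p = 0.0549), without Tcf21 P30 replicate 3 (1.77, adjusted p = 0.0577), without Tcf21 P7 replicate 1 (1.58, adjusted p = 0.184) and without Tcf21 P7 replicate 2 (1.85, adjusted p = 0.141), in a range of 4.7e-15 to 0.184 over all alternatives. The increase was called under 11 of 17 alternatives, and not with a block for replicate number (1.76, adjusted p = 0.0829) or with the Tcf21 P7 libraries summed (1.70). Relative to Tcf21 P30, Chad in Postn P7 was lower (-2.84 ± 0.45, adjusted p = 0.00566), and this was called under all 17 alternatives. It was -3.89 without Postn P7 replicate 1 and -2.27 without Postn P7 replicate 2. The difference between Postn P7 and Tcf21 P7 was not called (-1.14 ± 0.47, adjusted p = 0.157). It was called under 4 of 17 alternatives, namely without Postn P7 replicate 1 (-2.20, adjusted p = 0.0134), with DESeq2 (adjusted p = 0.0391), with no filter on low counts (adjusted p = 3.2e-05) and with both endothelial-rich libraries left out (-2.19, adjusted p = 0.000481). It was -0.58 without Postn P7 replicate 2, in a range of adjusted p from 3.2e-05 to 0.481. Chad lies within Acsf2 on the opposite strand, with 0 shared exon bases.

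Prg4 encodes lubricin, the lubricating glycoprotein of joint and tendon surfaces (chromosome 1, 150449412 to 150466165). It stood at 17.4 and 11.8 CPM in the Postn P7 group, 53.2, 57.8 and 63.4 CPM in the Tcf21 P30 group, and 13.9 and 13.3 CPM in the Tcf21 P7 group. The P7 groups overlapped and all Tcf21 P30 libraries lay above them. Prg4 was higher in Tcf21 P30 than in Tcf21 P7, by 2.10 ± 0.18 on the log2 scale (adjusted p = 0.000148, edgeR), and lower in Postn P7 than in Tcf21 P30 (-1.99 ± 0.18, adjusted p = 0.000165). Between the P7 groups the log2 fold change was 0.11 ± 0.18 (adjusted p = 0.733). Prg4 shares 204 exon bases, 4.77% of its exons, with Tpr on the opposite strand. Tpr averaged 117 CPM in Postn P7, 115 CPM in Tcf21 P30 and 62.2 CPM in Tcf21 P7. The strand setting of the counting is not given in the sources used here, so reads of the shared bases cannot be told apart, and their part in the Prg4 counts was not tested.

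Kera encodes keratocan, a small leucine-rich proteoglycan of the cornea (chromosome 10, 97606879 to 97613692), and had few counts. There were 12 and 6 counts in Postn P7, 30, 27 and 58 in Tcf21 P30, and 11 and 14 in Tcf21 P7. The 95% Poisson interval of the lowest count was 2.20 to 13.1, and such intervals cover counting error only. Every Tcf21 P30 library was above every P7 library also as CPM, with means of 0.509 ± 0.177 in Postn P7, 2.26 ± 0.804 in Tcf21 P30 and 0.717 ± 0.129 in Tcf21 P7 (SD, n = 2, 3 and 2). Kera was called higher in Tcf21 P30 than in Tcf21 P7, by 1.66 ± 0.46 on the log2 scale (adjusted p = 0.0278, edgeR). This was called under 12 of 17 alternatives, and not with a block for replicate number (1.32, adjusted p = 0.0896) or with the Tcf21 P7 libraries summed (1.65). The call was lost without Tcf21 P30 replicate 3 (1.33, adjusted p = 0.0886), without Tcf21 P7 replicate 1 (1.48, adjusted p = 0.167) and without Tcf21 P7 replicate 2 (1.85, adjusted p = 0.108), in a range of adjusted p from 0.00985 to 0.167. Kera was lower in Postn P7 than in Tcf21 P30 (-2.13 ± 0.48, adjusted p = 0.0146), which was called under 14 of 17 alternatives. That call was lost with a block for replicate number (-1.80, adjusted p = 0.0512) and without Tcf21 P30 replicate 3 (-1.78, adjusted p = 0.0509). It was also lost without Postn P7 replicate 2 (-1.83).

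Hapln1 differed in the opposite direction. It encodes link protein, which fastens hyaluronan to aggrecan or versican (chromosome 13, 89539796 to 89611652). Its counts were 115 and 108 in Postn P7, 9, 3 and 13 in Tcf21 P30, and 90 and 87 in Tcf21 P7, or 6.50 ± 0.591, 0.491 ± 0.270 and 5.07 ± 0.0670 CPM in that order (SD, n = 2, 3 and 2). Every P7 library was above every P30 library, and the 95% Poisson interval of the lowest count was 0.619 to 8.77. Hapln1 was lower in Tcf21 P30 than in Tcf21 P7, with a log2 fold change of -3.33 ± 0.40 (adjusted p = 0.000781, edgeR), number 126 from the lowest of 17636 genes. It was higher in Postn P7 than in Tcf21 P30 (3.69 ± 0.40, adjusted p = 0.000447). Both Postn P7 libraries lay above both Tcf21 P7 libraries, by 0.36 ± 0.38, which was not called (adjusted p = 0.573).

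Among the secreted and membrane proteins, Cytl1 was higher at P30 than at P7. It encodes a cytokine-like protein made by chondrocytes (chromosome 5, 37735519 to 37739820). Its values were 6.87 and 4.74 CPM in the Postn P7 group, 53.5, 41.5 and 39.8 CPM in the Tcf21 P30 group, and 7.50 and 6.001 CPM in the Tcf21 P7 group. The P7 groups overlapped and the Tcf21 P30 libraries were all far above. Tcf21 P30 over Tcf21 P7 gave 2.73 ± 0.22 on the log2 scale (adjusted p = 0.000131, edgeR), the largest increase of the 10 genes and number 526 from the highest of 17636. Cytl1 was lower in Postn P7 than in Tcf21 P30 (-2.94 ± 0.23, adjusted p = 9.1e-05), and both differences were called under all 17 alternatives. The P7 groups differed by a log2 fold change of -0.21 ± 0.24 (adjusted p = 0.590). The 8 genes listed for valve endothelium and endocardium summed to 560.5 and 553 CPM in the Postn P7 group, 442, 263 and 275 CPM in the Tcf21 P30 group and 431 and 435 CPM in the Tcf21 P7 group. In Postn P7 the sum rested largely on Cdh11 and Nfatc1, with means of 324.8 and 129.7 CPM. The next was Foxc1 at 31.9 CPM, so the sum is not read as the amount of these cells. None of the 8 was called higher in Tcf21 P30 than in Tcf21 P7, and Cdh11 (-1.81 ± 0.09) and Tmem108 (-1.47 ± 0.41) were lower. These counts were 0 higher and 1 lower without Tcf21 P30 replicate 3 or Tcf21 P7 replicate 1 or Tcf21 P7 replicate 2, and 1 higher and 2 lower without Tcf21 P30 replicate 1. Set against Tcf21 P30, Postn P7 had Cdh11 (2.47 ± 0.09) and Tmem108 (1.65 ± 0.41) higher and Foxc1 (-0.40 ± 0.12, adjusted p = 0.0376) lower, as Cytl1 was, with 1 higher and 0 lower without Postn P7 replicate 2 or Tcf21 P30 replicate 3. None was lower without Tcf21 P30 replicate 2 or without either Tcf21 P7 library. The part of valve endothelial and endocardial cells in the Cytl1 level was not tested.

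Tnmd encodes tenomodulin, a membrane glycoprotein used as a marker of mature tendon cells (chromosome X, 133850980 to 133865577). It was counted 274 and 76 times in Postn P7, 10, 15 and 1 times in Tcf21 P30, and 68 and 43 times in Tcf21 P7, or 14.5 and 4.87 CPM, 0.631, 0.951 and 0.0550 CPM and 3.86 and 2.48 CPM. The 3 groups did not overlap, Postn P7 was highest, and the single count had a 95% Poisson interval of 0.0253 to 5.57. Tnmd was called higher in Postn P7 than in Tcf21 P30, by 4.17 ± 0.80 on the log2 scale (adjusted p = 0.0114, edgeR), number 80 from the highest of 17636 genes. That call was lost without Postn P7 replicate 1 (3.17, adjusted p = 0.0503), and the value was 4.89 without Tcf21 P30 replicate 2, in a range from 1.1e-28 to 0.0503. Tcf21 P30 over Tcf21 P7 gave -2.56 ± 0.82 and missed the threshold (adjusted p = 0.0555). It was called under 7 of 17 alternatives, among them without Postn P7 replicate 1 (-2.56, adjusted p = 0.0412) and without Postn P7 replicate 2 (-2.56, adjusted p = 0.0439), in a range from 2.0e-10 to 0.257. Postn P7 over Tcf21 P7 gave 1.61 ± 0.78 (adjusted p = 0.221), with 0.61 without Postn P7 replicate 1 and 2.18 without Postn P7 replicate 2.

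Postn P7 replicate 1, the library with the most Tnmd, also held more transcripts of some other cell types than Postn P7 replicate 2. The 8 epicardial and mesothelial markers summed to 69.0 and 6.47 CPM in the Postn P7 group, 18.2, 2.09 and 1.98 CPM in the Tcf21 P30 group and 25.3 and 21.6 CPM in the Tcf21 P7 group, and none of the 7 tested was called with all libraries. Without Postn P7 replicate 2, 3 were called higher in Postn P7 than in Tcf21 P30. Without Tcf21 P30 replicate 1, 2 were called higher there and 1 lower in Tcf21 P30 than in Tcf21 P7. Msln, Upk1b and Lrrn4 were each without a count in 3 libraries. The 10 pericyte and smooth muscle markers summed to 2178 and 1431 CPM in the Postn P7 group, 1618, 419 and 528 CPM in the Tcf21 P30 group and 1112 and 1119.7 CPM in the Tcf21 P7 group. Of these, Notch3 was called higher in Postn P7 than in Tcf21 P30 (1.77 ± 0.43, adjusted p = 0.0359), and none was called in the other comparisons. Without Tcf21 P30 replicate 1, 10 of 10 were higher in Postn P7 than in Tcf21 P30, 8 lower in Tcf21 P30 than in Tcf21 P7 and 2 higher in Postn P7 than in Tcf21 P7. Leaving out any other library left none of the 10 called in the comparison of Postn P7 with Tcf21 P30. The 8 cardiomyocyte markers, none of them called with all libraries, summed to 1107 and 597 CPM, 900.0, 433 and 501 CPM and 1104 and 1008 CPM. Without Tcf21 P30 replicate 1, 3 of them were higher in Postn P7 than in Tcf21 P30, 4 lower in Tcf21 P30 than in Tcf21 P7 and 2 lower in Postn P7 than in Tcf21 P7, and without Postn P7 replicate 1, 1 was lower in Postn P7 than in Tcf21 P30. The part of these cells in the Tnmd level was not tested.

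Of the transcription factors, Scx was lower at P30 and Sox9 and Mkx were called in no comparison. Scx is the basic helix-loop-helix factor of tendon progenitors (chromosome 15, 76457452 to 76459458). It was present at 12.6 and 13.6 CPM in the Postn P7 group, 3.22, 5.90 and 3.35 CPM in the Tcf21 P30 group, and 10.97 and 11.1 CPM in the Tcf21 P7 group. The Tcf21 P30 libraries were all below the P7 libraries, and those of Postn P7 were highest. Scx was lower in Tcf21 P30 than in Tcf21 P7 (-1.41 ± 0.27 on the log2 scale, adjusted p = 0.00567, edgeR) and higher in Postn P7 than in Tcf21 P30 (1.66 ± 0.26, adjusted p = 0.00302). The difference between Postn P7 and Tcf21 P7, 0.25 ± 0.28, was not called (adjusted p = 0.605). Scx lies within Bop1 on the opposite strand, with 0 shared exon bases, and Bop1 was called in none of the 3 comparisons.

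Sox9, the high-mobility-group factor of cartilage and valve precursors (chromosome 11, 112782224 to 112787760), was measured at 255 and 339 CPM in the Postn P7 group, 210.0, 325 and 275 CPM in the Tcf21 P30 group, and 316 and 311 CPM in the Tcf21 P7 group. The groups overlapped, and the lowest value belonged to Tcf21 P30 replicate 1, which held the most endothelial transcripts. Their part in it was not tested. The log2 fold changes of Sox9 were -0.076 ± 0.21 for Postn P7 over Tcf21 P7, -0.22 ± 0.19 for Tcf21 P30 over Tcf21 P7 and 0.14 ± 0.19 for Postn P7 over Tcf21 P30 (adjusted p = 0.838, 0.422 and 0.659, edgeR). Mkx, a homeobox factor of tendon, had few counts, with 8 and 14 counts in Postn P7, 1, 5 and 19 in Tcf21 P30, and 5 and 15 in Tcf21 P7. The groups overlapped throughout. Its log2 fold changes were 0.18 ± 1.02, -0.24 ± 0.95 and 0.42 ± 0.94 in the same order (adjusted p = 0.924, 0.871 and 0.799), and none was called. Within Tcf21 P30 the 95% Poisson intervals of the lowest count (0.0253 to 5.57) and the highest (11.4 to 29.7) do not overlap, so these libraries differed by more than counting error.

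**Figure D2:**
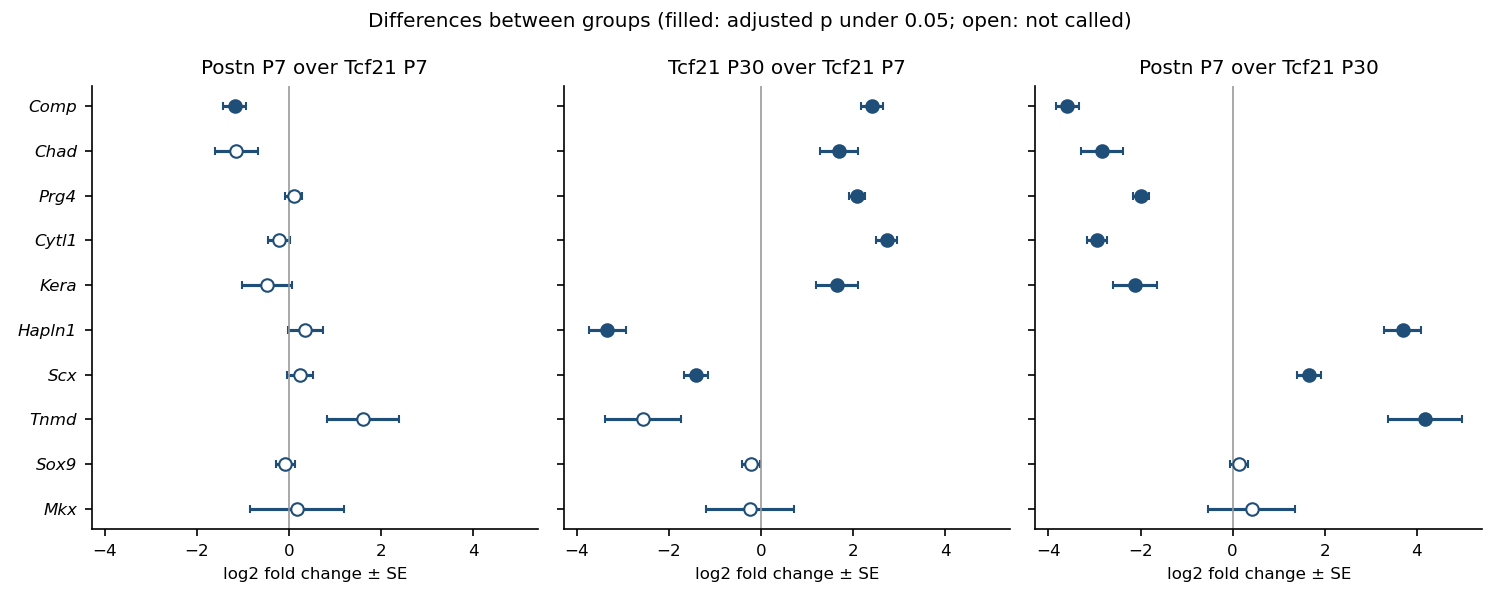
Log2 fold change (horizontal axis) with its SE for each gene in the 3 comparisons, filled where the adjusted p was under 0.05 and open where it was not. Between Postn P7 and Tcf21 P7 Comp alone is filled, and in the comparisons with Tcf21 P30 Sox9 and Mkx are open, as is Tnmd for Tcf21 P30 over Tcf21 P7.

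Levels of different genes were compared as CPM per kilobase of exon. Sox9 led in every group, with 71.9 ± 14.3 in Postn P7, 65.3 ± 13.9 in Tcf21 P30 and 75.8 ± 0.987 in Tcf21 P7 (SD, n = 2, 3 and 2), above 96.9%, 95.6% and 96.3% of the tested genes with a known length. In Tcf21 P30 it was followed by Comp at 47.9 ± 6.75, Cytl1 at 42.6 ± 7.03, Chad at 19.8 ± 3.59 and Prg4 at 13.6 ± 1.20 CPM per kilobase, and the means of Comp and Cytl1 differed by less than either SD. In Tcf21 P7 the order after Sox9 was Comp at 8.999 ± 0.927, Cytl1 at 6.39 ± 1.005, Chad at 6.11 ± 0.789, Scx at 5.51 ± 0.0592 and Prg4 at 3.18 ± 0.0888, and the means of Cytl1 and Chad differed there by less than either SD. In Postn P7 Tnmd came after Sox9, at 7.15 ± 5.03 CPM per kilobase, followed by Scx at 6.53 ± 0.372 and Cytl1 at 5.50 ± 1.43, and the SD of Tnmd exceeded its distance from both. Mkx had the lowest mean in both P7 groups, at 0.161 ± 0.0818 in Postn P7 and 0.140 ± 0.100 in Tcf21 P7. Hapln1 had the lowest in Tcf21 P30 at 0.0832 ± 0.0458. The next means, Kera in Postn P7 (0.223 ± 0.0776) and Mkx in Tcf21 P30 (0.116 ± 0.124), differed from these by less than either SD.

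**Figure D3:**
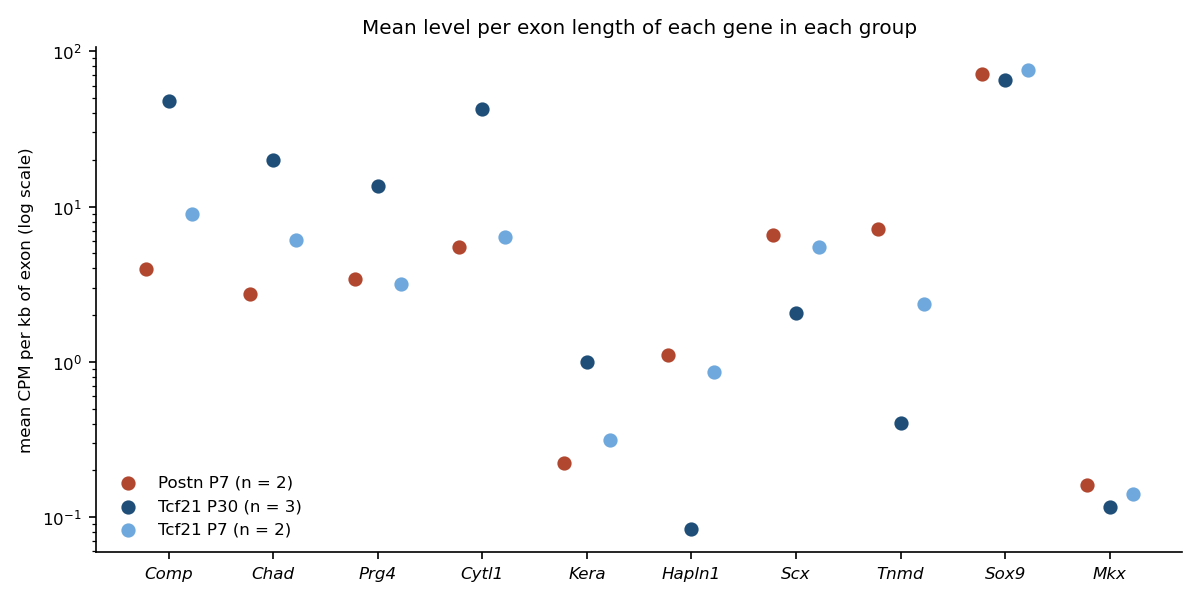
Mean CPM per kilobase of exon (log scale) of each gene in Postn P7, Tcf21 P30 and Tcf21 P7, drawn without error bars. Comp and Cytl1 lie close to Sox9 in Tcf21 P30 and well below it in both P7 groups, and Hapln1 has the lowest mean of Tcf21 P30.

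The genes most like each called member in pattern were sought among 12222 genes with a mean of at least 5 CPM. Likeness was the root mean square difference of centred log2 CPM over the 7 libraries, where 0 is an identical pattern. Nearest to Comp were Ifi207 (0.15), Efemp1, which encodes a fibulin, (0.21) and Podn, which encodes podocan, (0.24). Efemp1 was also nearest to Chad, whose neighbours were Efemp1 (0.36), Kcng4 (0.38) and Arl4d (0.39). The neighbours of Prg4 were Gstm7 (0.12), Gm20412 (0.13) and Ccl2, a chemokine gene (0.18), and those of Kera were Cmklr1 (0.18), Gstk1 (0.20) and Car5b (0.24). Cytl1 was nearest to Rtp4 (0.18) and Isg20 (0.23). Hapln1 was nearest to Moxd1 (0.28), Tmeff1 (0.32) and Frem1 (0.38), and Scx to Chst2, a sulfotransferase gene (0.17), Masp1 (0.18) and Per2, a clock gene (0.18). Tnmd had no close neighbour, the nearest being Cdca5, a cell division gene (0.76), Lrrc15 (0.83) and Brca1 (0.84).

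The relatives of these genes did not all follow them. Of 19 related genes 16 were tested, and 3 were higher and 3 lower in Tcf21 P30 than in Tcf21 P7, with a median of 0.011. The counts were 3 higher and 0 lower without Tcf21 P7 replicate 1 and 2 higher and 0 lower without Tcf21 P7 replicate 2. Cnmd, which encodes chondromodulin, the close relative of tenomodulin, averaged 10.7 ± 0.726 CPM in Tcf21 P30 and 0.659 ± 0.0476 CPM in Tcf21 P7 (SD, n = 3 and 2) and was called higher (4.01 ± 0.41), whereas Tnmd had its lowest values in Tcf21 P30. Omd (2.70 ± 0.17) and Prelp (0.78 ± 0.12), which encode leucine-rich proteoglycans as Kera does, were higher too. Of the same protein family, Fmod was called lower (-0.60 ± 0.14, adjusted p = 0.0124) and Lum was not called (0.027 ± 0.13, adjusted p = 0.892). The thrombospondin gene Thbs3 (-0.88 ± 0.18) was lower where Comp was higher. Between Postn P7 and Tcf21 P30, 1 was higher and 3 were lower (median -0.016), namely Cnmd (-2.93 ± 0.38), Omd (-2.17 ± 0.17), Thbs4 (1.51 ± 0.17) and Prelp (-1.49 ± 0.13), with 5 higher and 3 lower without Tcf21 P30 replicate 1. In Postn P7 against Tcf21 P7, Thbs4 was higher (0.99 ± 0.18) and Prelp lower (-0.71 ± 0.13), with a median of 0.17. Leaving out 1 library gave 1 higher and 0 lower without Postn P7 replicate 2 or Tcf21 P30 replicate 3, 4 higher and 2 lower without Tcf21 P30 replicate 1, 2 higher and 2 lower without Tcf21 P30 replicate 2 and none called without Tcf21 P7 replicate 1 or Tcf21 P7 replicate 2.

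Cartilage genes differed in both directions. Of 21 listed, 16 were tested, and 5 were higher and 6 lower in Tcf21 P30 than in Tcf21 P7, with a median of -0.47. The largest changes among the called genes were those of Col9a3 (-4.18 ± 0.27) and Col9a2 (-3.03 ± 0.26), chains of collagen IX, of Cnmd, given above, and of the aggrecan gene Acan (-2.66 ± 0.52). Acan averaged 0.721 ± 0.441 CPM in Tcf21 P30 and 4.55 ± 0.720 CPM in Tcf21 P7 (SD, n = 3 and 2), lower at P30 like Hapln1. For Postn P7 set against Tcf21 P30, 4 were higher and 4 lower (median 0.32), led by Col9a3 (4.54 ± 0.27), Cnmd, Col9a2 (2.81 ± 0.26) and the epiphycan gene Epyc (-2.78 ± 0.25). Between Postn P7 and Tcf21 P7, Cilp2, which encodes a cartilage intermediate layer protein, was the sole call (-1.55 ± 0.30, list median -0.0046). The counts were 1 higher and 3 lower without Postn P7 replicate 1 and none called without Postn P7 replicate 2 or Tcf21 P30 replicate 3 or Tcf21 P7 replicate 1 or Tcf21 P7 replicate 2.

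Of 16 other tendon and ligament genes, all tested, 2 were higher and 11 lower in Tcf21 P30 than in Tcf21 P7 (median -0.64), with 0 higher and 7 lower without Tcf21 P7 replicate 1 or Tcf21 P7 replicate 2. Tnc, the tenascin C gene, averaged 31.5 ± 10.9 CPM in Tcf21 P30 and 379.7 ± 1.29 CPM in Tcf21 P7 (SD, n = 3 and 2), a log2 fold change of -3.59 ± 0.27, followed by the collagen genes Col11a1 (-3.59 ± 0.39) and Col12a1 (-1.54 ± 0.15) and the lysyl oxidase gene Lox (-1.41 ± 0.09). In Postn P7 against Tcf21 P30, 8 were higher and 3 lower (median 0.58), led by Tnc (3.81 ± 0.27), Col11a1 (3.02 ± 0.39), the serine protease gene Htra3 (-1.66 ± 0.21) and Lox (1.62 ± 0.09). Thbs4 was higher in Postn P7 than in Tcf21 P7, and Ptgis (-0.55 ± 0.10), the prostacyclin synthase gene, and Col14a1 (-0.54 ± 0.13) were lower (median -0.24). These counts were 1 higher and 4 lower without Tcf21 P30 replicate 1, 1 higher and 0 lower without Tcf21 P30 replicate 3 and none called without Tcf21 P7 replicate 1 or Tcf21 P7 replicate 2.

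Of 20 valve and endocardial cushion genes 19 were tested, and 6 were higher and 5 lower in Tcf21 P30 than in Tcf21 P7 (median -0.12), with 3 higher and 4 lower without Tcf21 P7 replicate 2. Postn had the largest change (-2.41 ± 0.13), followed by the opioid precursor gene Penk (1.75 ± 0.26), the elastin gene Eln (-1.33 ± 0.11) and the transcription factor gene Tbx20 (-1.30 ± 0.17). For Postn P7 set against Tcf21 P30, 7 were higher and 6 lower (median -0.079), led by Postn (2.01 ± 0.13), Prelp, the Wnt inhibitor gene Wif1 (-1.17 ± 0.11) and the protease gene Adamts5 (-1.04 ± 0.15). Penk (1.27 ± 0.28) and Snai2 (0.55 ± 0.11) were higher and Prelp was lower in Postn P7 than in Tcf21 P7 (median -0.14), with none called without Postn P7 replicate 2 or Tcf21 P30 replicate 3 or Tcf21 P7 replicate 1 or Tcf21 P7 replicate 2 and 3 higher and 2 lower without Tcf21 P30 replicate 1. Postn is also the gene whose driver marked the PostnMCM line. The lists share members such as Thbs4, Prelp and Cnmd. Between Postn P7 and Tcf21 P7, fewer of all genes were called without Postn P7 replicate 2, Tcf21 P30 replicate 3 or either Tcf21 P7 library. A list with none called in those settings is therefore not read as particular to that list.

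**Figure D4:**
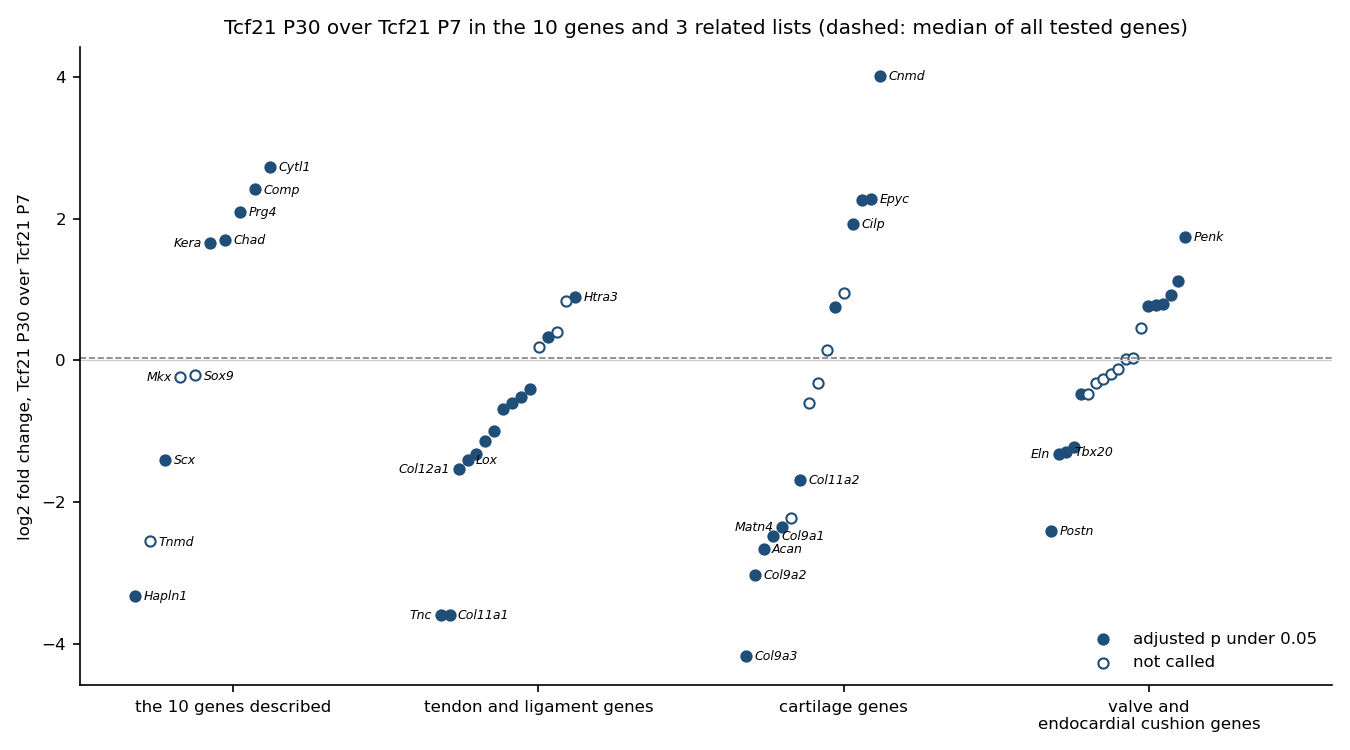
Log2 fold change of Tcf21 P30 over Tcf21 P7 for the 10 genes and for the tested genes of the tendon, cartilage and valve lists, 1 point per gene, filled where the adjusted p was under 0.05. The dashed line is the median of all genes, 0.03, and each of the 4 columns holds called genes on both sides of it.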

How the data were processed

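Raw counts per gene symbol, 1 column for each of the 7 libraries, were deposited by the authors. The aligner was STAR and the build GRCm38, per the submitters' processing notes. The counting program, annotation release and strand setting are not given in the sources used here. Groups came from the labels, which name no batch. No count was present in any library for 21563 symbols.

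Counts were fitted in R 4.3.3 with edgeR 4.0.16 (filterByExpr with a minimum count of 10, TMM scaling, robust quasi-likelihood fit of all 7 libraries, which shares 1 estimate of the spread). P-values were two-sided and adjusted by the Benjamini-Hochberg method over 17636 genes, with a threshold of 0.05. The SE restates the test, as the size of the log2 fold change over the root of F. The code was tested on simulated data. DESeq2 1.42.0 and limma 3.58.1 (voom) were alternatives. Positions and exon lengths came from a GENCODE annotation of GRCm38.

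The members and lists were chosen with earlier results of these data known. All 10 members are named, up to 4 called genes with the largest change per list and comparison, and the 3 nearest genes in pattern of each member called at least once, of which 1 is not reported here. Genes named outside this rule are partners on the other strand, markers of other cells, and Fmod and Lum, which were named after their values were seen.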

Additional observations from a re-analysis of the deposited data

How the results depend on the processing

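The numbers of genes called and the log2 fold changes of the members were recomputed under 17 alternatives, 7 of which left out 1 library. Levels, marker sums, list medians, non-overlap and nearest patterns were computed only as reported. The number of members called between Postn P7 and Tcf21 P7, 1 as reported, was 3 with no filter on low counts, 2 with DESeq2, 0 with the Tcf21 P7 libraries summed and 2 with both endothelial-rich libraries left out. With 1 library left out it was 0 to 2, beside 5 to 8 between Tcf21 P30 and Tcf21 P7 (7 as reported) and 7 to 8 between Postn P7 and Tcf21 P30 (8 as reported). Comp, Cytl1, Prg4, Scx and Hapln1 were called in both comparisons with Tcf21 P30 under all 17 alternatives. With no filter on low counts some adjusted p were far smaller at nearly the same log2 fold change. For Comp in Postn P7 over Tcf21 P30 it was 4.8e-100 at -3.57, against 0.000106 at -3.59 as reported (edgeR). The lowest adjusted p of each range given above came from this setting and is not read as stronger evidence.

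Of all genes, 2118 were called between Postn P7 and Tcf21 P7, against 3442 with no filter, 123 with the Tcf21 P7 libraries summed and 3750 with both endothelial-rich libraries left out. With 1 library left out the number was 111 to 3250, namely 1106 without Postn P7 replicate 1, 507 without Postn P7 replicate 2, 3250 without Tcf21 P30 replicate 1, 1059 without Tcf21 P30 replicate 3, 118 without Tcf21 P7 replicate 1 and 111 without Tcf21 P7 replicate 2. Between Tcf21 P30 and Tcf21 P7, 5604 were called, 2463 with the Tcf21 P7 libraries summed and 2418 to 6063 with 1 library left out (2442 without Tcf21 P7 replicate 1 and 2418 without Tcf21 P7 replicate 2). Postn P7 and Tcf21 P30 differed in 4276 genes, and in 2810 to 5072 with 1 library left out (2810 without Postn P7 replicate 1). Scaling by library size alone shifted the median gene by 0.11 (log2) in both comparisons with Postn P7. It gave 1741 higher and 472 lower between Postn P7 and Tcf21 P7 (1149 higher and 969 lower as reported; 1187 higher and 647 lower with upper-quartile factors) and 2802 higher and 1725 lower between Postn P7 and Tcf21 P30 (2070 higher and 2206 lower as reported). The causes were not tested.

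Signs changed for Sox9, Prg4, Cytl1 and Mkx, none of them called in the comparison concerned. Between Postn P7 and Tcf21 P7, Sox9 was 0.032 with library size alone and 0.12 with both endothelial-rich libraries left out, where Prg4 was -0.20. With 1 library left out, Sox9 ranged from -0.31 to 0.11, Prg4 from -0.20 to 0.34, Cytl1 from -0.52 to 0.015 and Mkx from -0.44 to 1.19. Between Tcf21 P30 and Tcf21 P7, Mkx was 0.27 with both left out and -1.54 to 0.76 with 1 left out. Between Postn P7 and Tcf21 P30, Sox9 ranged from -0.086 to 0.33 and Mkx from -0.20 to 1.74.

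No label says that equal replicate numbers pair libraries. Deviations of same-numbered libraries had correlations between 0.0399 and 0.312 over genes, which are not independent. With the replicate block, 0, 6 and 7 members and 1556, 4553 and 3348 of all genes were called for Postn P7 over Tcf21 P7, Tcf21 P30 over Tcf21 P7 and Postn P7 over Tcf21 P30. A lone library left in a group was assumed to vary like the other groups.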
